A study of Homo sapiens with 6 samples.

Results

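The genes examined were 9 components of the type I interferon pathway, namely the receptor chains IFNAR1 and IFNAR2, the receptor kinases JAK1 and TYK2, the transcription factors STAT2, IRF9, IRF3 and IRF7, and the readthrough gene that joins RNF31 to IRF9 (ENSG00000259529.1, listed in the files under a clone-based symbol). They were chosen by symbol, with earlier results of these data known, so the differences below describe these genes and are not independent evidence. All 9 were among the 26899 genes of the count table, and 8 of them were among the 15299 genes that passed the filter on low counts and were tested. The gene left out by the filter was IRF9.

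In order to examine the cells after ANXA2 knockdown, polyadenylated RNA of HK-2 was sequenced in 3 libraries labelled shANXA2 and 3 libraries labelled shCtrl. HK-2 is an established human kidney proximal tubule line transformed with human papillomavirus 16, and both groups were kept in the same medium and transfected with plasmids by a lipid reagent. The labels call the control cells wild type in one field and shCtrl in another, so whether they carried a control hairpin is not settled. The hairpin sequence, the number of hairpins, the time of harvest and whether the libraries came from separate cultures are not stated in the sources read, so any p-value measures only the spread between these libraries.

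Type I interferons bind a receptor made of IFNAR1 and IFNAR2, whose inner tails carry the tyrosine kinases TYK2 and JAK1. The active kinases phosphorylate STAT proteins, and STAT2 joins IRF9 in the complex ISGF3, which binds a sequence called the interferon-stimulated response element (ISRE) and switches on antiviral genes. IRF3 and IRF7 act earlier, since they are activated by sensors of viral nucleic acid and induce the interferon genes, and IRF7 is itself an interferon-induced gene.

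The libraries held between 24231267 and 34561675 counted reads. ANXA2, the targeted gene, was not lower under its own label. Its level was 1598 ± 119 CPM (read counts scaled by library size with TMM factors, mean ± SD, n = 3) in the libraries labelled shCtrl and 1539 ± 21.3 in those labelled shANXA2, with overlapping groups (log2 fold change -0.05, standard error, SE, 0.075). Directions below are therefore given for the labels and not for a shown loss of ANXA2. On the first principal component of all tested genes, which held 38.54% of the variance, shCtrl 1 lay at -61.84 and shANXA2 3 at -13.71, whereas the other 4 libraries lay between 11.05 and 26.43. Of 11 markers of kidney tubule epithelium, 9 had at least 1 CPM in every library, whereas the proximal tubule markers ANPEP and AQP1 were close to 0 with 18 and 4 reads over all libraries.

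The start regions of the ISGF3 genes are shown, since ISGF3 and other STAT complexes act through short motifs near start sites. The ISRE was searched as GAAA, any 2 bases and GAAA again, and the STAT element (GAS) as TTCNNNGAA, on both strands of the 250 bases before each annotated start. Among 35116 promoters of RefSeq (GRCh38.p14) the ISRE was held by 3.02% and the GAS by 6.57%. The STAT2 window held neither motif, and its part outside annotated exons (chr12:56360204-56360357, minus strand) is printed below. The readthrough gene starts within the first exon of RNF31, so the window of RNF31 next to that start is printed for it, again outside annotated exons (chr14:24147259-24147452, plus strand), and it held neither motif. The other RNF31 window, farther from that start (chr14:24146625-24146874), held 1 ISRE match on the opposite strand, ending 237 bases before its own start site, and no GAS match. The IRF9 window held 1 GAS match, from 63 to 55 bases before the start and in capitals below, and no ISRE match. That match (chr14:24161192-24161221, plus strand, with its flanks) lies inside an exon of the readthrough gene that runs from 24160520 to 24161338. The windows of IFNAR1, JAK1 and TYK2 held neither motif, and the genes not matched by symbol in this table were IFNAR2, IRF3, IRF7 and the readthrough gene (5 of 9 matched). A match is a string of letters and not a shown binding site.
STAT2 window: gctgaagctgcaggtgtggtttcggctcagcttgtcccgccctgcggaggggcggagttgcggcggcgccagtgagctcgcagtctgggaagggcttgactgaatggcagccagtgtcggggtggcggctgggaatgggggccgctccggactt
RNF31 window: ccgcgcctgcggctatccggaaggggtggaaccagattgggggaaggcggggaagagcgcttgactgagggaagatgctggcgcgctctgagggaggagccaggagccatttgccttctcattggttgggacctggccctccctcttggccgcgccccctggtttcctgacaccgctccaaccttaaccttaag
IRF9 match: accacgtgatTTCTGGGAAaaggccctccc

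None of the 8 tested genes passed an adjusted p of 0.05 in edgeR's quasi-likelihood test with Benjamini-Hochberg adjustment over all tested genes. The smallest adjusted p among them was 0.287, and the percentage of all 15299 genes called by this rule was 0. At an unadjusted p under 0.05, edgeR had 1251 genes, DESeq2 1285 and limma-voom 1322, and DESeq2 called 31 genes after adjustment, the readthrough gene and IRF7 among them. In 3 of the 8 genes every library labelled shANXA2 was above every library labelled shCtrl, against 7.94% of all tested genes. In 0 of the 8 genes every library labelled shANXA2 was below, against 7.7% of all tested genes. The median log2 fold change was 0.13 over the 8 genes and -0.01 over all tested genes. As these libraries are bulk RNA, fewer cells of a kind and less RNA per cell cannot be told apart.

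**Figure D1:**
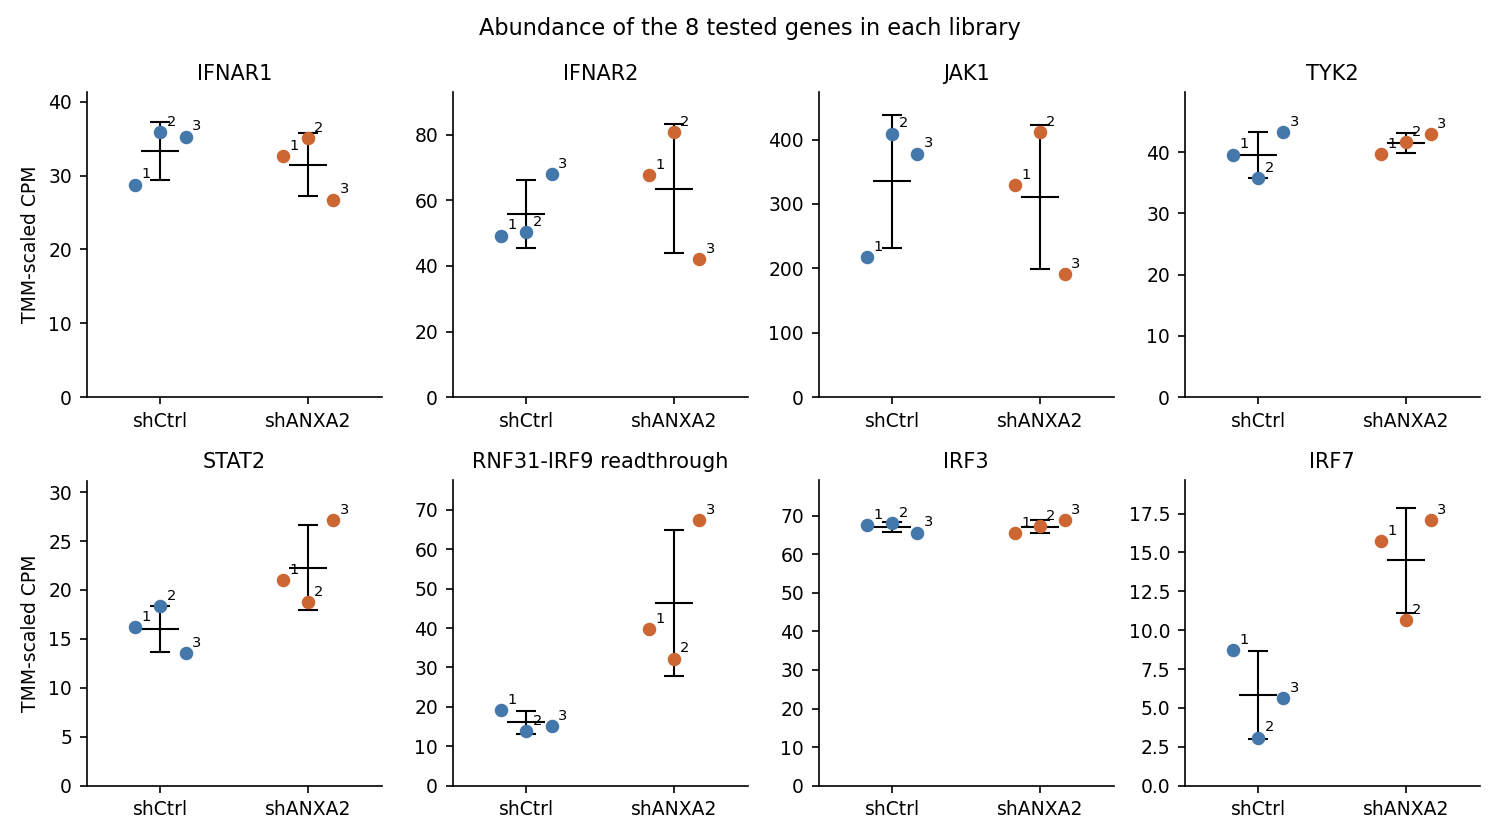
TMM-scaled CPM (vertical axes, from 0) of the 8 tested genes in the libraries labelled shCtrl (blue) and shANXA2 (orange), where each point is a library with its replicate number, and the bars give the mean and SD of 3 libraries. The groups separate for STAT2, the readthrough gene and IRF7 and overlap for the other 5 genes.

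To analyze the receptor, its chains were taken first. IFNAR1 (ENSG00000142166.12, GRCh38 chromosome 21, 33324387 to 33359864, plus strand), the chain to which TYK2 is bound, had 28.78, 35.92 and 35.28 CPM in shCtrl 1, 2 and 3. Its levels were 32.59, 35.10 and 26.74 CPM in shANXA2 1, 2 and 3. The groups overlapped, with the lowest level in shANXA2 3 and the next lowest in shCtrl 1. The means were 33.3 ± 3.95 and 31.5 ± 4.29 CPM (SD, n = 3), and the log2 fold change was -0.08 (SE 0.142, 95% interval -0.40 to 0.24).

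IFNAR2 (ENSG00000159110.19, chromosome 21, 33205282 to 33265675, plus strand), the chain that binds interferon most tightly and carries JAK1, varied more. Its levels were 49.23, 50.32 and 67.90 CPM in shCtrl 1, 2 and 3, and 67.63, 80.86 and 42.12 CPM in shANXA2 1, 2 and 3. The highest and the lowest of the 6 levels were both under the shANXA2 label, and the groups overlapped (log2 fold change 0.19, SE 0.22, 95% interval -0.32 to 0.69). On the scale of FPKM, which scales fragments by transcript length as well as by library depth, IFNAR2 was above IFNAR1 in every library. The ratio was 2.41, 1.98 and 2.71 in shCtrl 1, 2 and 3, and 2.93, 3.25 and 2.22 in shANXA2 1, 2 and 3.

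IFNAR2 shares 2038 exonic bases, 14.7% of its own, with the same-strand gene AP000295.9, so reads of the shared part may have been assigned to either gene. The shared bases are 51.69% of the exonic bases of AP000295.9, so its reads may also come from exons outside IFNAR2. AP000295.9 had 275, 343 and 427 reads in shCtrl 1, 2 and 3, and 497, 447 and 459 reads in shANXA2 1, 2 and 3. The reads of IFNAR2 per read of AP000295.9 lay between 4.37 and 4.95 under the shCtrl label and between 2.65 and 5.97 under the shANXA2 label. The lowest of these ratios was in shANXA2 3, the library in which IFNAR2 itself was lowest, while AP000295.9 was not low there.

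Among the receptor kinases, JAK1 had the highest FPKM of the 9 genes and varied widely under both labels. JAK1 (ENSG00000162434.11, chromosome 1, 64833223 to 65067754, minus strand), the kinase shared by many cytokine receptors, had 217.2, 409.1 and 378.3 CPM in shCtrl 1, 2 and 3, and 328.8, 412.0 and 191.1 CPM in shANXA2 1, 2 and 3. Each label thus held 1 low library (shCtrl 1 and shANXA2 3) and 2 libraries well above it. These low libraries were also those apart from the rest on the first principal component, and the part of that difference between libraries in the JAK1 levels was not tested. The highest level was 2.16 times the lowest, but the log2 fold change between the labels was -0.11 (SE 0.29, 95% interval -0.76 to 0.54).

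TYK2 (ENSG00000105397.13, chromosome 19, 10350533 to 10380608, minus strand), the kinase at IFNAR1, was steadier. It had 39.60, 35.70 and 43.31 CPM in shCtrl 1, 2 and 3, and 39.71, 41.67 and 42.91 CPM in shANXA2 1, 2 and 3. Its groups overlapped, with the lowest and the highest level both under the shCtrl label (log2 fold change 0.07, SE 0.112, 95% interval -0.18 to 0.32). For the 4 receptor and kinase genes the intervals therefore included values below and above 0, and for IFNAR2 and JAK1 they were wide.

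The ISGF3 components were examined next. STAT2 (ENSG00000170581.13, chromosome 12, 56341597 to 56360203, minus strand), the STAT protein that is largely dedicated to interferon receptors, had 395, 599 and 422 reads in shCtrl 1, 2 and 3. It had 717, 619 and 783 reads in shANXA2 1, 2 and 3. As CPM these were 16.19, 18.32 and 13.55 against 21.01, 18.75 and 27.12. The levels under the shANXA2 label were all higher, but shANXA2 2 exceeded shCtrl 2 by less than 1 CPM. The means were 16.0 ± 2.39 and 22.3 ± 4.33 CPM, a 1.39-fold difference (95% interval 1.06 to 1.83, log2 fold change 0.48, SE 0.18).

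The separation of STAT2 depended on the scaling. In the deposited FPKM values, shANXA2 2 had 5.17 and shCtrl 2 had 5.18, so the groups overlapped there, as they did in CPM without TMM factors. The log2 fold change was 0.31 without shANXA2 3 and 0.59 without shANXA2 2.

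IRF9 (ENSG00000213928.8, chromosome 14, 24161234 to 24168043, plus strand), the DNA-binding partner of STAT2, was almost empty in its own row. It had 0, 0 and 1 read in shCtrl 1, 2 and 3, and 2, 0 and 2 reads in shANXA2 1, 2 and 3. All libraries were at or under 3 reads, so no fold is given. Its deposited FPKM was at most 0.03.

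The RNF31-IRF9 readthrough gene (ENSG00000259529.1, chromosome 14, 24147548 to 24166452, plus strand) covers the same stretch. Its annotated transcript has 29 exons with 5574 bases, and in GENCODE 44 these hold 1513 of the 1626 bases (93.05%) of the representative IRF9 transcript and 3452 of the 3502 bases (98.57%) of the representative RNF31 transcript. Only 113 bases of that IRF9 transcript lay outside the readthrough. A read from that IRF9 transcript, when spliced, therefore in most positions fits both genes. Over all annotated exons the shared part was smaller, with 1544 of 6471 bases (23.86%) of IRF9 and 3457 of 6713 bases (51.5%) of RNF31. The rule by which the authors' counting treated reads that fit both genes was not stated.

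**Figure D2:**
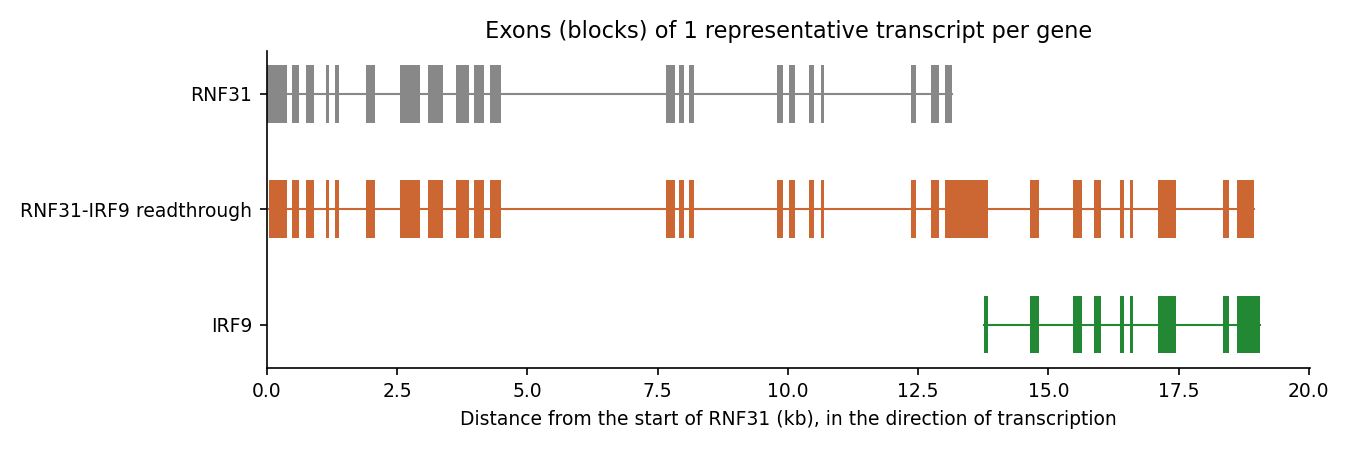
Exons (blocks) of 1 representative transcript each of RNF31, the RNF31-IRF9 readthrough gene and IRF9 by distance in kb from the start of RNF31 (horizontal axis), in the direction of transcription. Nearly all blocks of RNF31 and IRF9 recur in the readthrough gene, which has 29 exons.

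Of the 8 tested genes, the readthrough row had the highest estimate, followed by IRF7. The readthrough gene had 468, 452 and 470 reads in shCtrl 1, 2 and 3, and 1356, 1065 and 1945 reads in shANXA2 1, 2 and 3. As CPM these were 19.19, 13.83 and 15.09 against 39.74, 32.25 and 67.36. The groups did not overlap. The lowest level under the shANXA2 label was above the highest under the shCtrl label by more than the range of the shCtrl levels. That gap was smaller than the range of the shANXA2 levels. The means were 16.0 ± 2.80 and 46.5 ± 18.5 CPM, a 2.90-fold difference (95% interval 1.93 to 4.35, log2 fold change 1.54, SE 0.26).

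The library shANXA2 3 was the highest, and without it the log2 fold change was 1.17, below that of IRF7 at 1.195. The order was also turned without shCtrl 1, at 1.68 against 1.74 for IRF7. With the few IRF9 reads added to the row, the log2 fold change was 1.54 (SE 0.26).

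RNF31, the ubiquitin ligase gene at the other end of the readthrough, was taken as the comparison within the locus. It had 623, 717 and 766 reads in shCtrl 1, 2 and 3, and 933, 952 and 908 reads in shANXA2 1, 2 and 3. In CPM it was 24.0 ± 1.87 and 29.2 ± 2.08, with groups that did not overlap and a log2 fold change of 0.28 (SE 0.12, 95% interval 0.01 to 0.55). The readthrough row held 0.751, 0.630 and 0.614 reads per RNF31 read in shCtrl 1, 2 and 3, and 1.45, 1.12 and 2.14 in shANXA2 1, 2 and 3. Every library labelled shANXA2 thus had more reads in the readthrough row than in RNF31, and every library labelled shCtrl had fewer. Which of the 3 transcripts these reads came from cannot be told apart in gene totals.

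IRF3 and IRF7, the factors that induce interferon genes, stood in contrast. IRF3 (ENSG00000126456.15, chromosome 19, 49659569 to 49665875, minus strand), which most cells hold ready before infection, had 67.52, 68.10 and 65.62 CPM in shCtrl 1, 2 and 3. It had 65.46, 67.35 and 68.82 CPM in shANXA2 1, 2 and 3. The highest level was only 1.05 times the lowest, and the groups overlapped (log2 fold change 0.00, SE 0.090, 95% interval -0.20 to 0.21). IRF3 shares 734 exonic bases with BCL2L12 on the other strand, and since the strand setting of the counting is not given, some reads may belong to BCL2L12 (log2 fold change -0.09, SE 0.133).

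IRF7 (ENSG00000185507.19, chromosome 11, 612553 to 615983, minus strand), the interferon-inducible factor, had 213, 101 and 175 reads in shCtrl 1, 2 and 3. It had 537, 352 and 493 reads in shANXA2 1, 2 and 3. As CPM these were 8.73, 3.09 and 5.62 against 15.74, 10.66 and 17.07. The groups did not overlap, and within each label replicate 2 was the lowest. The means were 5.81 ± 2.83 and 14.5 ± 3.38 CPM, a 2.51-fold difference (95% interval 1.47 to 4.27, log2 fold change 1.33, SE 0.34). Leaving out single libraries gave log2 fold changes between 1.02, without shCtrl 2, and 1.74, without shCtrl 1.

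**Figure D3:**
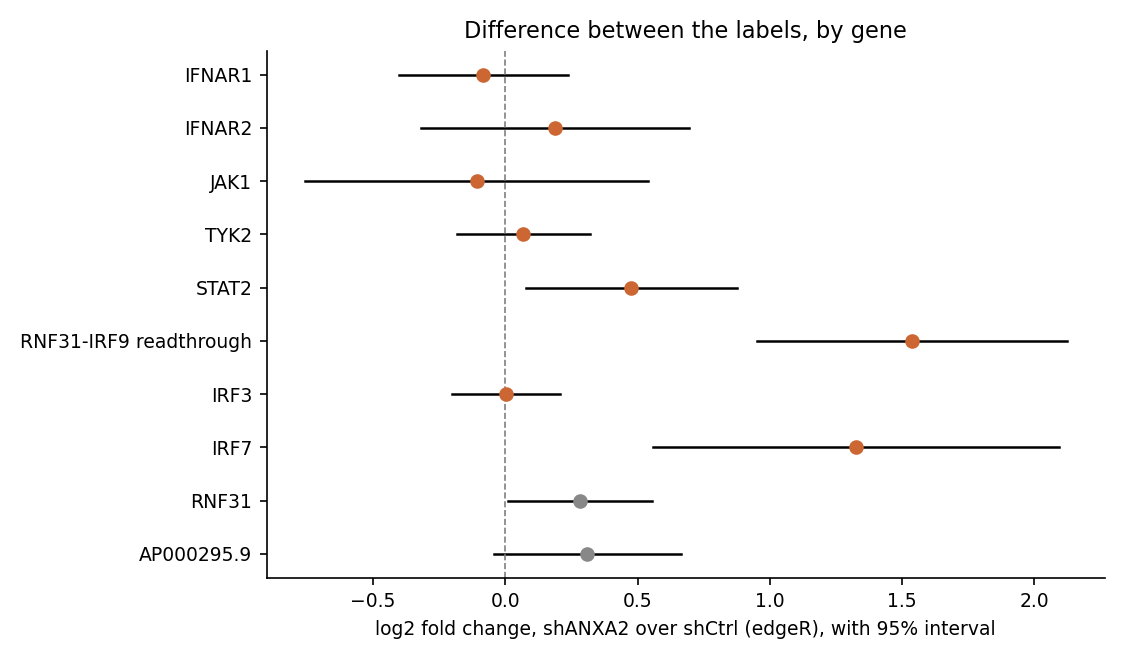
Log2 fold change of the libraries labelled shANXA2 over those labelled shCtrl (horizontal axis) with its 95% interval from edgeR for the 8 tested genes (orange) and for 2 genes that overlap them (RNF31 and AP000295.9, grey). The intervals of the readthrough gene and IRF7 lie well above 0 with estimates of 1.54 and 1.33, and that of IRF3 is centred on 0.

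The levels were then ordered by deposited FPKM, which allows genes of different length to be compared. JAK1 was the highest, with a mean of 60.38 FPKM over the 6 libraries (35.85 to 77.74). IRF3 followed with 26.48 (25.56 to 27.28), IFNAR2 with 12.92 (9.16 to 17.38) and TYK2 with 7.94 (7.11 to 8.52). The ranges of these 4 genes did not overlap. The readthrough gene had 6.14 FPKM (2.76 to 13.30), STAT2 5.33 (3.78 to 7.57), IFNAR1 4.98 (4.12 to 5.61) and IRF7 4.47 (1.38 to 7.56). The order of these neighbours was not stable, since TYK2 was above the readthrough gene in 4 of 6 libraries, the readthrough gene above STAT2 in 3, STAT2 above IFNAR1 in 3, and IFNAR1 above IRF7 in 4. IRF9 was last at 0 to 0.03 FPKM, with IRF7 above it in all 6 libraries. With at most 2 reads per library in the IRF9 row, almost no reads that fit both IRF9 and the readthrough gene were assigned to IRF9. Whether such reads were counted for the readthrough gene or left out is not stated. The places of these genes are therefore not levels of their transcripts.

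**Figure D4:**
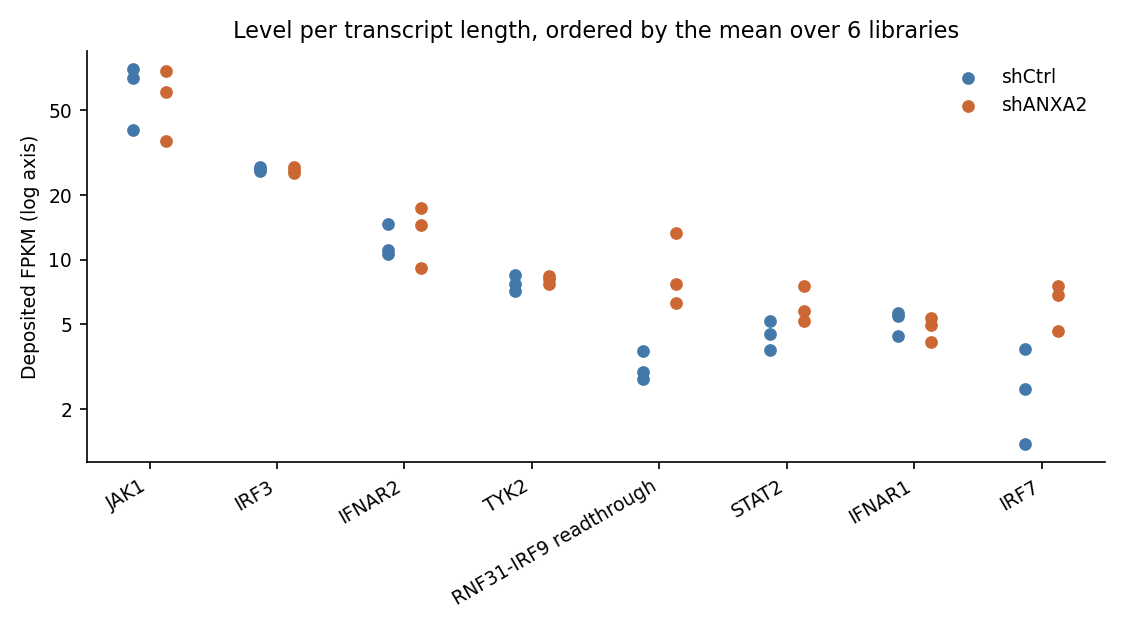
Deposited FPKM (vertical log axis) of the 8 tested genes in each of the 3 libraries labelled shCtrl (blue) and shANXA2 (orange), ordered by the mean over 6 libraries. JAK1 (35.85 to 77.74) and IRF3 (25.56 to 27.28) stand above the others, and the readthrough gene changes its place in the order between the labels.

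Across the 6 libraries some of these genes varied together. The Pearson correlation of log2 CPM was 0.99 between IFNAR1 and JAK1, both lowest in shCtrl 1 and shANXA2 3. It was 0.91 between the readthrough gene and IRF7 and 0.87 between STAT2 and the readthrough gene, whereas IFNAR2 and IRF3 had -0.69 and IFNAR1 and IRF7 had -0.64. These values rest on 6 libraries that share their scaling and contain the difference between the labels, so they are descriptions only.

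Among 10539 genes with at least 5 CPM on average, the 5 most like each of 3 genes were listed by the same measure over 6 libraries. For the readthrough gene they were S100A13 (0.997), PARP6 (0.994), OAS1 (0.993), MCM2 (0.992) and ABCF3 (0.988). OAS1, an antiviral 2'-5'-oligoadenylate synthetase, had 11.5 CPM on average under the shCtrl label and 42.8 CPM under the shANXA2 label, whereas S100A13, a small calcium-binding protein, had 90.9 and 106.5 CPM. For IRF7 they were CYHR1 (0.993), VGF (0.992), WDR73 (0.992), FAM136A (0.991) and IFITM1 (0.990), of which IFITM1, a membrane protein that blocks virus entry, had 10.8 CPM under the shCtrl label and 40.2 CPM under the shANXA2 label. For STAT2 they were ATP6V0D1 (0.987), a subunit of the vacuolar proton pump, MRPS33 (0.985), FTSJ2 (0.976), ITGB1BP1 (0.974) and GCAT (0.968). A high correlation did not mean a like size of difference, since the log2 fold change of ATP6V0D1 was 0.15.

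The rest of the pathway was read from a list of 84 genes in 9 roles, of which 66 had a read and 60 were tested. None of the 60 passed the adjusted p of edgeR. In 14 of them, of which 8 were ISGF3 targets, the shANXA2 levels were all higher, and in 2 all lower, against 7.94% and 7.7% of all tested genes. The median log2 fold change of the 60 was 0.14. The interferon ligands were nearly absent, since 4 of 21 genes had any read and none passed the filter. IFNL3 had 13 reads over all libraries, 2 in shCtrl 3, 7 in shANXA2 2 and 4 in shANXA2 3. IFNB1 had 4 reads, 1 in shANXA2 1 and 3 in shANXA2 2, IFNA5 had 4 reads, all in shANXA2 1, and IFNE had 1 read, in shCtrl 2.

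Of the 4 other interferon receptor genes, IL10RB, the shared chain of the type III interferon receptor, had 28.4 ± 2.82 and 34.6 ± 0.816 CPM under the shCtrl and shANXA2 labels (log2 fold change 0.28, SE 0.115), with groups that did not overlap. Its partner IFNLR1 had 5.00 ± 1.81 and 7.66 ± 2.42 CPM with overlapping groups (log2 fold change 0.61, 95% interval -0.12 to 1.34). IFNGR1, the ligand-binding chain for interferon gamma, overlapped as well at 52.1 ± 24.8 and 60.8 ± 19.4 CPM. In the other Janus kinases and the other STAT genes 0 of 8 separated. Of all tested genes 7.94% separated higher and 7.7% lower, so counts among so few genes were not read as a result. The log2 fold changes were 0.31 (SE 0.15) for STAT5A and -0.19 (SE 0.15) for STAT5B, which serve growth hormone and cytokine receptors.

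Of the other IRF genes, 4 of 6 were tested. IRF5, which acts downstream of toll-like receptors, had 12.4 ± 0.43 and 14.7 ± 0.48 CPM under the shCtrl and shANXA2 labels without overlap, a log2 fold change of 0.25 (SE 0.132). IRF1, an interferon gamma response factor, overlapped at 70.5 ± 8.11 and 74.4 ± 0.568 CPM, and IRF2, its antagonist, overlapped with a log2 fold change of 0.11. These differences were small beside that of IRF7.

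Of 13 inhibitors 1 was lower and 0 were higher without overlap, against 7.7% and 7.94% of all tested genes, so the share of lower genes was near the background. The lower gene was SOCS2, with 1.54 ± 0.656 CPM under the shCtrl label against 0.794 ± 0.266 CPM under the shANXA2 label (log2 fold change -0.95, SE 0.46). Its separation was thin, since shANXA2 3 had 1.07 CPM and shCtrl 3 had 1.16 CPM, while shCtrl 1 was highest at 2.30 CPM. SOCS2 mainly restrains growth hormone signalling. USP18, which is bound to IFNAR2 and dampens the receptor, had 3.75 ± 0.839 and 8.59 ± 3.79 CPM (log2 fold change 1.19, SE 0.34), but shANXA2 2 at 4.66 CPM lay just under shCtrl 2 at 4.68 CPM. SOCS1, the main feedback inhibitor of JAK1 and TYK2, overlapped with a log2 fold change of 0.39.

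Among the coactivators and adaptors, IFI35, an interferon-induced protein that binds NMI, had 13.5 ± 2.73 and 22.1 ± 3.38 CPM without overlap (log2 fold change 0.71, SE 0.18). SMARCA4, a chromatin remodeller, and KAT2A, a histone acetyltransferase, overlapped with log2 fold changes of 0.12 and 0.11. Of 15 tested activators of IRF3 and IRF7, 3 were higher and 1 was lower without overlap, against 7.94% and 7.7% of all tested genes, so the share of lower genes was near the background. The sensor of long double-stranded RNA, IFIH1, had 4.23 ± 0.107 and 10.7 ± 1.75 CPM (log2 fold change 1.34, SE 0.19), and its regulator DHX58 had 2.38 ± 0.942 and 6.29 ± 1.64 CPM (log2 fold change 1.40, SE 0.33). The others, named after their values were seen, were the RNA sensor DDX58, higher at 7.96 ± 0.693 and 10.6 ± 1.77 CPM, and its adaptor MAVS, lower at 144.5 ± 3.11 and 128.3 ± 7.4 CPM. IKBKE, a kinase of IRF3 and IRF7, overlapped with a log2 fold change of 0.59 (SE 0.32).

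The ISGF3 targets were the role with the highest median, and the list was written with earlier results of these data known. Of 10 targets, all had an estimate above 0 and 8 were higher without overlap (7.94% of all tested genes were), with a median log2 fold change of 1.74. IFI6, an interferon-induced mitochondrial protein, had 14.9 ± 4.83 and 105.1 ± 74.7 CPM (log2 fold change 2.82, SE 0.48). RSAD2, which makes an antiviral nucleotide, had 0.389 ± 0.165 and 2.38 ± 1.06 CPM (log2 fold change 2.62, SE 0.49). IFIT1, which binds viral RNA, had 2.57 ± 1.65 and 10.1 ± 7.51 CPM with overlapping groups (log2 fold change 1.99, SE 0.58), and the other overlapping target was IFIT3, named after its values were seen. Like the readthrough gene, these 3 targets were highest in shANXA2 3, and without that library their log2 fold changes were 2.09 for IFI6, 2.20 for RSAD2 and 1.22 for IFIT1. That of IFIT1 was 2.64 without shCtrl 1.

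**Figure D5:**
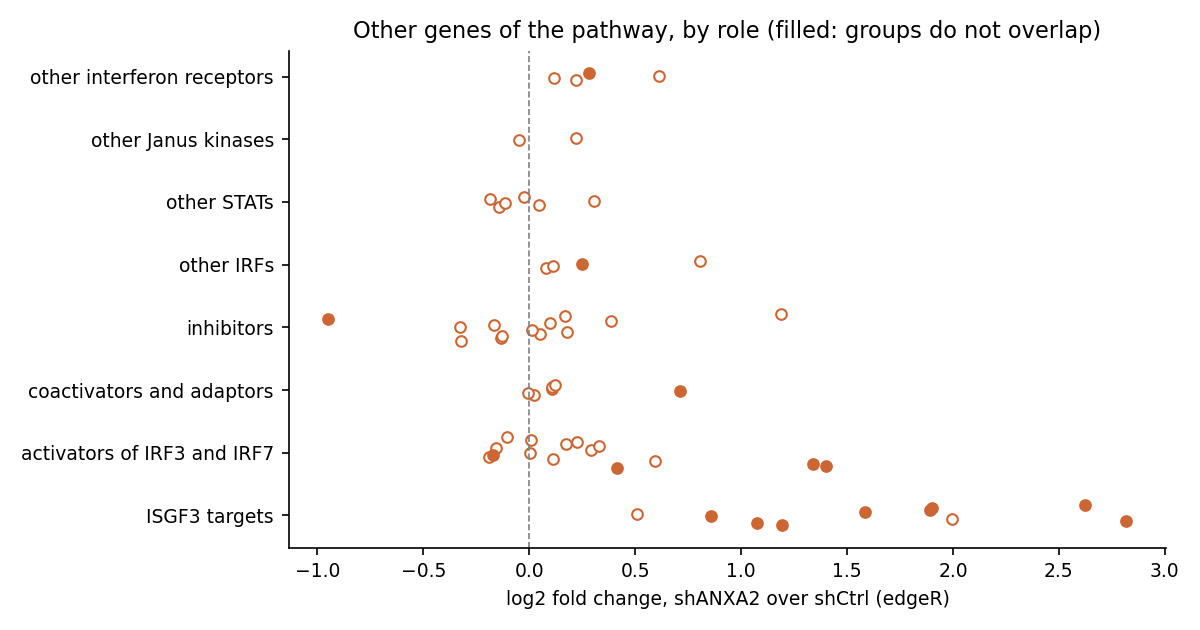
Log2 fold change of the libraries labelled shANXA2 over those labelled shCtrl (horizontal axis) of the 60 tested pathway genes by role, where each point is a gene and filled points are genes whose groups do not overlap. The 10 ISGF3 targets lie to the right with a median of 1.74, whereas the other roles lie around 0 with single genes apart.

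To examine whether cells of other types were present, markers were summed in each library. Leukocyte markers came to 3.34 to 5.39 CPM under the shCtrl label and 3.88 to 6.81 CPM under the shANXA2 label, with 7 of 11 at 0 reads, among them PTPRC, which marks all leukocytes. However, CD14 (1.10 to 3.46 CPM) and CD68 (1.27 to 3.06 CPM) had at least 1 CPM in every library. Markers of plasmacytoid dendritic cells, the main interferon producers of blood, came to 2.09 to 2.73 and 1.42 to 2.58 CPM, with LILRA4 and IL3RA at 0. Nearly all of this sum was TCF4, with 413 reads over all libraries against 1 read of CLEC4C. Endothelial markers were at most 0.394 CPM with VWF and KDR at 0, and fibroblast markers ranged from 5.66 to 11.08 and from 4.81 to 9.90 CPM with PDGFRA at 0. Most of the fibroblast sum was COL1A1, at 4.50 to 10.63 CPM. Kidney epithelium markers summed to 2447 to 3042 and 2961 to 3097 CPM. Most of this sum was the keratins KRT8, at 849.7 to 1343 CPM, and KRT18, at 443.9 to 624.6 CPM.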

How the data were processed

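RNA-seq of 6 HK-2 libraries was analysed, 3 labelled shCtrl and 3 labelled shANXA2. The submitters' processing notes name bcl2fastq, TopHat2, edgeR and the build GRCh38. What counted the reads, with which strand setting and annotation release, was not given in the sources used here. Raw read counts per gene were deposited by the authors without normalisation. The authors also deposited FPKM values for 26803 genes, rounded to 2 decimals. Over 2556 genes above 20 FPKM in every library, FPKM equalled the counts up to 1 constant per gene and library (largest SD 0.000286 on the log2 scale), so FPKM is no separate measurement. Per-sample columns left unused numbered 0.

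The main test was edgeR's quasi-likelihood F test (edgeR 4.0.16, R 4.3.3), two-sided, without covariates, with TMM scaling and the default filter (minimum count 10, total 15), and p-values were adjusted over 15299 genes by the method of Benjamini and Hochberg. DESeq2 1.42.0 and limma 3.58.1 were alternatives, as were other scalings, filters and leaving out each library. CPM is given as mean ± SD. Replicates within a label differed beyond sampling noise, with a chi-square per degree of freedom of 9.64 to 49.7. The labels name no batch or date.

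Positions come from GENCODE 44 on GRCh38, in which 26125 gene identifiers (97.12%) were found. Promoters come from RefSeq, GRCh38.p14. The genes, the pathway list and the markers were chosen with earlier results of these data known. Named were all 9 genes, per role up to 3 tested pathway genes of at least 1 CPM with the largest absolute log2 fold change, same-strand overlapping genes, the 5 genes most like STAT2, the readthrough gene and IRF7, and ANXA2. OAS1 and IFITM1 are also singled out with their levels from the lists of most alike genes, and BCL2L12 as an overlapping gene on the other strand, after their values were seen. 1 further gene of this rule is not reported here.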

Additional observations from a re-analysis of the deposited data

How the results depend on the processing

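Recomputed were the log2 fold changes of the 8 tested genes and of the readthrough row with the IRF9 reads added. Of 145 comparisons with alternatives, 130 kept direction and side of the threshold, 6 gained the call and 9 reversed. The summed row nearly repeats the readthrough row, and 2 of the 6 gained calls were its own. Whether the replicate numbers pair the libraries was not settled. The deviations of libraries with the same number correlated at -0.06, 0.12 and -0.20, and not every library correlated best with its own number. With 3 libraries per label these values cannot exclude pairing. With the replicate number as a block, 0 genes passed and no call differed. The log2 fold changes were then 0.47 for STAT2, 1.48 for the readthrough gene and 1.41 for IRF7. The count of genes past the adjusted p was 0 in edgeR, 165 without the filter on low counts, 31 in DESeq2, and 0 to 4 on leaving out single libraries, with 4 without shANXA2 2. Genes whose groups did not overlap numbered 2392, and 3131 to 4976 with a library left out, where fewer samples make separation easier.

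The readthrough gene was called without the filter (1.54, adjusted p 5.88e-20) and in DESeq2 (1.54, adjusted p 2.36e-07), as was its sum with IRF9 (1.54 in both). IRF7 was called without the filter (1.33, adjusted p 6.23e-07) and in DESeq2 (1.33, adjusted p 0.0139). Without the filter the estimates hardly moved, but the SE was smaller. It was 0.154 against 0.26 in the main fit for the readthrough gene, and 0.215 against 0.341 for IRF7. In edgeR the adjusted p on leaving out a library ranged from 0.0992 to 0.92 for the readthrough gene and from 0.353 to 0.988 for IRF7. The cause was not tested. STAT2 was called in none of the alternatives run.

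IRF3 reversed at -0.0207 with library size only, at -0.0117 in limma on log2(FPKM + 1) and at -0.0121 on log2(FPKM + 0.1). Its range with a library left out was -0.0126 to 0.023. That of IFNAR1 was -0.175 to 0.023 (above 0 without shANXA2 3), that of IFNAR2 -0.0205 to 0.413 (below 0 without shANXA2 2), and that of JAK1 -0.362 to 0.147 (above 0 without shCtrl 2 or shANXA2 3). With 1 to 13 reads in all, the interferon ligands that had a read could not be compared at this depth. The IRF9 row, with 5 reads in all, could not be compared either. Most positions of the representative IRF9 transcript also fit the readthrough gene, so those few reads are no measure of the level of IRF9.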
